A study of Schmidtea mediterranea with 50 samples.

Results

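Core histone transcripts were followed in whole planarians (*Schmidtea mediterranea*, asexual strain CIW4) through RNAi of *chd4*, of *p53* and of *unc22*, the control. The 4 transcripts described here are SMED30021776 (histone H3), SMED30025482 (histone H4), SMED30011413 (histone H2A type 2-C) and SMED30021461 (histone H2B.1/H2B.2), named after the closest protein match given by the study, and they are 4 of 35057 transcripts in the table. They were selected on their level in *chd4*(RNAi) against control in these same libraries, so every value of *chd4*(RNAi) against another group is given as a description, without a test. Worms were fed RNAi food 3 times, on days 0, 3 and 6. Worms collected on day 3 had therefore not had all 3 feedings. Whether worms of days 3 and 6 were collected before that day's feeding is not stated. Each library was made from 10 pooled worms, so that it averages over worms and over all tissues. *chd4*(RNAi) worms were collected on days 3, 6, 9, 12 and 15, and *p53*(RNAi) and *unc22*(RNAi) worms on the same days and on day 18. Each group had 3 libraries, except *p53*(RNAi) day 18 with 2, which makes 50 libraries in 17 groups.

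Histones H3, H4, H2A and H2B are the proteins around which DNA is wrapped in the nucleosome, a pair of H3-H4 dimers at its centre flanked by H2A-H2B dimers. In animals most core histone genes are transcribed in S phase, when new DNA has to be packaged, and their mRNAs usually end in a hairpin bound by the stem-loop binding protein instead of a poly(A) tail, while variant histones such as H2A.Z are made throughout the cell cycle from ordinary polyadenylated mRNAs. In planarians the dividing cells are the neoblasts, the adult stem cells marked by *smedwi-1*. CHD4 is the helicase of the NuRD complex, which moves nucleosomes and carries histone deacetylases, and p53 is a transcription factor known in mammals for its role in the response to DNA damage. The libraries were prepared by poly(A) selection, so the values below are levels of histone RNA within the selected RNA. They are given as RPKM (read counts scaled to transcript length and library size). They do not measure the level of histone RNA that ends in a hairpin, and whether any of it was carried through the selection was not tested.

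The depth recovered from the RPKM values was 13.9 to 26.3 M reads per library (M, 1e6 reads), with medians of 19.3 M in *chd4*(RNAi), 18.2 M in *p53*(RNAi) and 19.3 M in control, and libraries of a group correlated with r of 0.981 to 0.992 across transcripts, lowest within *p53*(RNAi) day 9. The targeted genes were low where the labels say so. *chd4* stood at 9.91 to 12.0 RPKM in the 15 *chd4*(RNAi) libraries and 36.2 to 44.3 RPKM in controls, and *p53* at 1.48 to 11.9 RPKM in the 17 *p53*(RNAi) libraries and 31.1 to 40.8 RPKM in controls. In whole worms, fewer cells that express a transcript and less RNA per cell cannot be told apart.

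Histone H3 was the most abundant of the 4 in *chd4*(RNAi) worms from day 6 and had the highest ratio to control of the 4 from day 9. It measured 19.7, 17 and 20.3 RPKM at day 3, 55.5, 61.2 and 64.2 at day 6, 83.2, 84.5 and 80.5 at day 9, 66.8, 65.1 and 70.6 at day 12 and 40.2, 42.0 and 39.6 at day 15. The controls of the same days were at 2.85, 3.56 and 2.74, at 2.98, 2.95 and 2.47, at 1.67, 1.64 and 1.91, at 0.443, 1.22 and 0.824, and at 0.643, 0.618 and 0.865 RPKM. The lowest *chd4*(RNAi) library thus stood above the highest control at each day, and each of the 5 days was separated from the next, upwards to day 9 and downwards after it. The ratio of the means was 6.22 at day 3, 21.5 at day 6, 47.5 at day 9, 81.3 at day 12 and 57.2 at day 15. The highest ratio came at day 12 and not at the peak of day 9 as the control mean went from 1.74 ± 0.15 (SD, n = 3) to 0.83 ± 0.39 RPKM (SD, n = 3) between those days. By the difference of log2(RPKM + 0.5), histone H3 was ranked 1 of the 25079 transcripts tested at days 3, 6 and 9, 2 at day 12 and 5 at day 15.

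Histone H4, the partner of H3, followed the same course at a lower level. Its *chd4*(RNAi) libraries measured 8.47, 6.60 and 7.23 RPKM at day 3, 17.3, 15.3 and 19.2 at day 6, 25.6, 22.9 and 24.8 at day 9, 21.1, 19.5 and 16.9 at day 12 and 18.6, 18.0 and 13.4 at day 15. Controls were at 2.59, 3.23 and 2.95, at 2.18, 3.20 and 1.41, at 1.41, 3.46 and 1.61, at 1.31, 1.35 and 1.94, and at 1.43, 1.46 and 0.935 RPKM on the same days. No *chd4*(RNAi) library overlapped a control, but days 12 and 15 of *chd4*(RNAi) overlapped each other. The ratio of the means rose from 2.55 at day 3 through 7.63, 11.3 and 12.5 to 13.1 at day 15, and the rank among all transcripts tested went from 7 at days 3 and 6 to 24 at day 15.

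Histone H2A type 2-C, a component of the outer H2A-H2B dimers, had a ratio to control close to that of H3 at days 3 and 6 and held its level longer. The *chd4*(RNAi) libraries measured 9.25, 8.08 and 7.06 RPKM at day 3, 23.2, 25.3 and 24.3 at day 6, 35.5, 35.1 and 34.4 at day 9, 35.2, 32.5 and 33.9 at day 12 and 25.4, 26.6 and 26.7 at day 15. Controls ranged from 0.524 to 1.57 RPKM over days 3 to 15, so the lowest *chd4*(RNAi) library of the series stood above every one of them. Days 9 and 12 of *chd4*(RNAi) overlapped, and day 15 kept 0.750 of the day 9 mean, against 0.490 for H3, 0.681 for H4 and 0.672 for H2B.1/H2B.2. The ratio of the means was 6.32 at day 3, 21.4 at day 6, 30.2 at day 9 and 32.9 at both later days. It ranked 2 of all transcripts tested at days 3 and 6, 4 at day 9, 7 at day 12 and 14 at day 15.

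Histone H2B.1/H2B.2, the partner of H2A, differed from the other three in being well expressed in control worms, and its ratio was the smallest of the 4 at each day. It measured 23.3, 23.6 and 25.3 RPKM at day 3 of *chd4*(RNAi), 33.3, 30.2 and 31.4 at day 6, 40.5, 42.7 and 45.5 at day 9, 32.8, 30.3 and 34.1 at day 12 and 26.8, 30.4 and 29.2 at day 15. Control libraries were at 15.9, 13.7 and 13.2 RPKM, then 15.2, 14.7 and 12.9, then 12.0, 13.1 and 11.3, then 5.38, 4.84 and 7.35, and at day 15 at 3.72, 3.14 and 5.05 RPKM. The groups were again separate at each day. The ratio of the means was 1.68 at day 3, 2.22 at day 6, 3.54 at day 9, 5.53 at day 12 and 7.26 at day 15. From day 9 to day 15 that ratio went up although the *chd4*(RNAi) mean went down from 42.9 ± 2.5 to 28.8 ± 1.8 RPKM (SD, n = 3 each), since the control mean went from 12.1 ± 0.9 to 3.97 ± 0.98 RPKM (SD, n = 3 each). Its rank among the transcripts tested lay between 39 and 74.

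**Figure D1:**
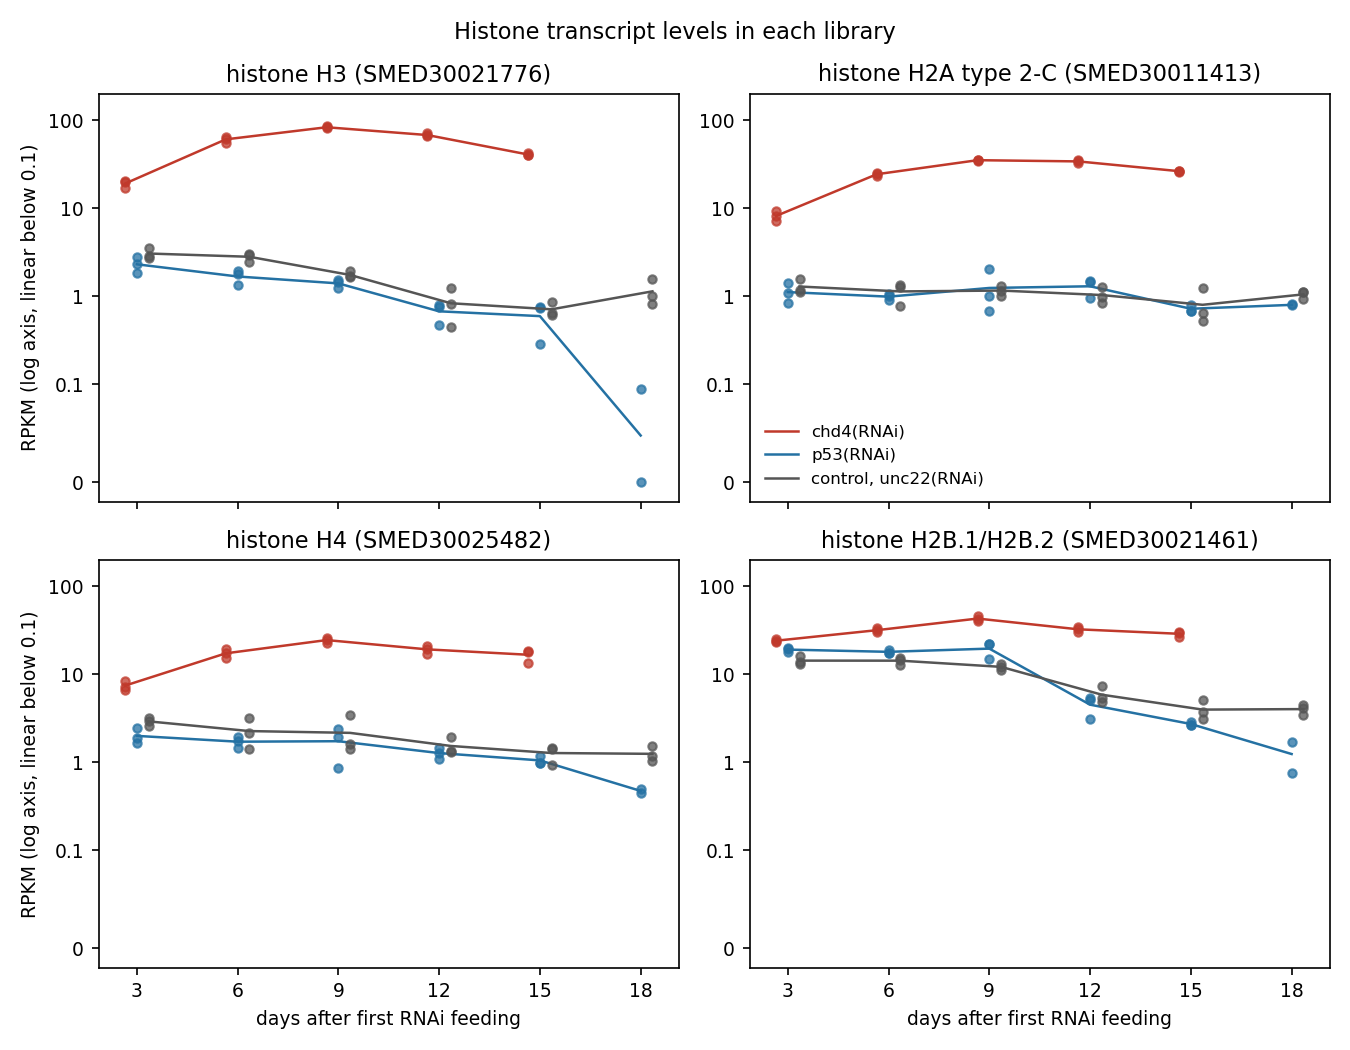
RPKM of the 4 histone transcripts in each of the 50 libraries (points; log axis, linear below 0.1) by day after the first RNAi feeding, with group means joined by lines. All *chd4*(RNAi) points lie above the *p53*(RNAi) and control points of their day, the peak is at day 9 in each panel, and 1 of the 2 *p53*(RNAi) day 18 libraries has histone H3 at 0.

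All 4 transcripts were thus above every control and every *p53*(RNAi) library of the same day at days 3, 6, 9, 12 and 15. The share of all transcripts tested that stood above every control in the same way was 8.21%, 10.5%, 20.7%, 21.8% and 23.1% at these days. No such share is at hand for *chd4*(RNAi) against *p53*(RNAi). Nothing is read from either comparison, because the transcripts were chosen on their level in *chd4*(RNAi). Ordered by mean over the 17 groups, the 5 *chd4*(RNAi) groups came first for each transcript, with day 9 highest. Below them most neighbours in the order overlapped. For histone H2A type 2-C the 12 *p53*(RNAi) and control groups spanned 0.719 to 1.29 RPKM and each overlapped the next. Of the 16 pairs of neighbours in the order, 12 overlapped for H2A type 2-C and for H4, 10 for H3 and 9 for H2B.1/H2B.2. Below the *chd4*(RNAi) groups, H2B.1/H2B.2 separated *p53*(RNAi) day 6 from control day 3, control day 9 from control day 12, control day 15 from *p53*(RNAi) day 15 and the latter from *p53*(RNAi) day 18, and H3 and H4 separated the last of these pairs. The lowest group was *p53*(RNAi) day 18 for H3, H4 and H2B.1/H2B.2, and *p53*(RNAi) day 15 for H2A type 2-C.

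The composition of the set differed as well as its sum. Summed over the 4 transcripts, *chd4*(RNAi) worms had 58.6 ± 2.9 RPKM at day 3, 133 ± 5 at day 6, 185 ± 0.25 at day 9, 153 ± 5 at day 12 and 112 ± 4 at day 15 (mean ± SD, n = 3 each), and the controls of these days had 21.5 ± 1.3, 20.5 ± 2.1, 17.2 ± 2.0, 9.25 ± 1.5 and 6.75 ± 0.90 RPKM (mean ± SD, n = 3 each). In controls H2B.1/H2B.2 made up most of that sum, 66.3% ± 4.4 at day 3 and 70.8% ± 3.7 at day 9 (SD, n = 3 each), and H3 was 14.1% ± 1.8 and 10.3% ± 1.8. In *chd4*(RNAi) worms H2B.1/H2B.2 took 41.1% ± 2.4 at day 3 and 23.2% ± 1.3 at day 9, and H3 32.3% ± 1.5 and 44.7% ± 1.1 (SD, n = 3 each). The shares of the 4 transcripts were therefore nearer to one another in *chd4*(RNAi) worms, in which H4 had the smallest share from day 3 to day 15, 12.5% to 14.8%.

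**Figure D2:**
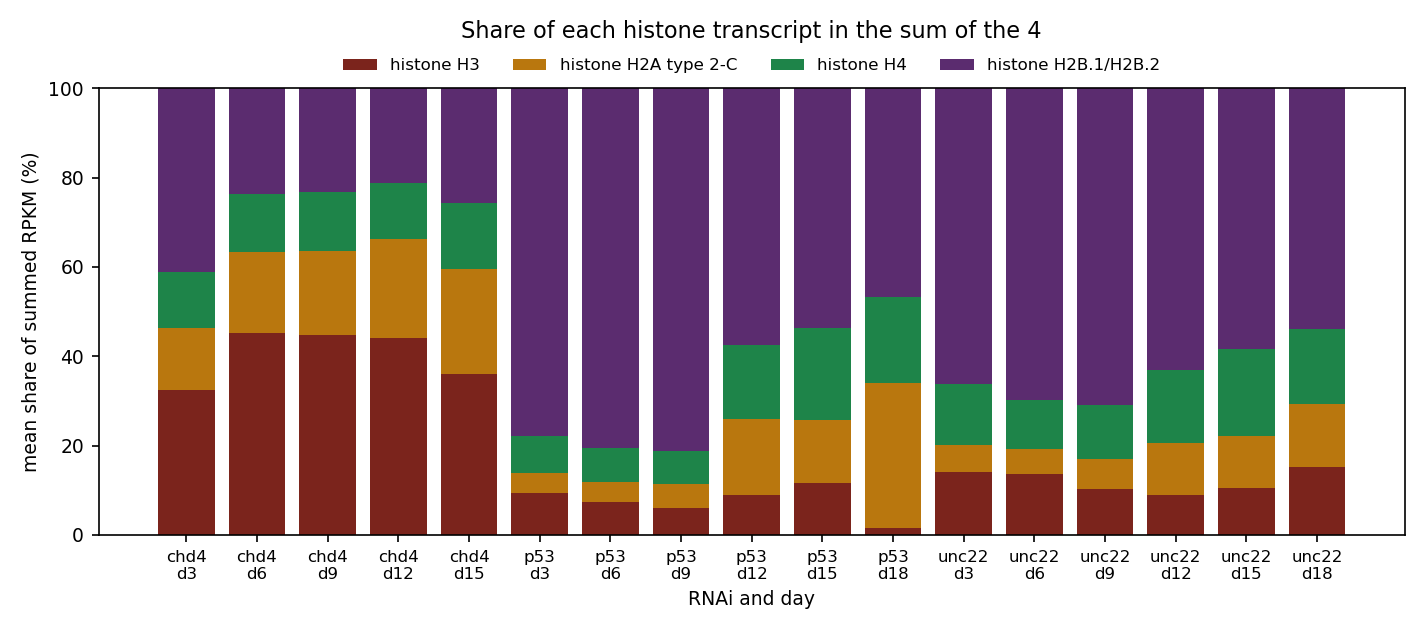
Mean share (%) of each of the 4 histone transcripts in their summed RPKM, for the 17 groups of RNAi and day. Histone H2B.1/H2B.2 holds 66.3% in control at day 3 and 41.1% in *chd4*(RNAi) at day 3, and histone H3 reaches 44.7% at day 9 of *chd4*(RNAi).

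The comparison of *p53*(RNAi) with control was not used to choose the transcripts, although the controls up to day 15 are the same libraries. It was tested with limma across all 25079 transcripts, with Benjamini-Hochberg adjustment within each day, and a transcript was called where its adjusted p was under 0.05 and its log2 change exceeded 1 in either direction. None of the 4 was called at days 3 to 15, when 0.171%, 0.518%, 1.48%, 1.53% and 2.25% of all transcripts tested were called lower and 0.0159%, 0.0319%, 0.379%, 0.427% and 0.534% higher. At an unadjusted p under 0.05, with no minimum change, there were 3, 2, 1, 1 and 1 of the 4 at these days, where 1924, 3387, 8650, 9330 and 10505 of the 25079 transcripts passed. H3 and H4 were lower and H2B.1/H2B.2 higher at day 3, H3 lower and H2B.1/H2B.2 higher at day 6, and the one at the later days was H2B.1/H2B.2, higher at day 9 and lower at days 12 and 15. At day 18, 2 of the 4 were called lower, H3 and H2B.1/H2B.2, beside 3.56% of all transcripts. With a pseudocount of 2 in place of 0.5 neither reached the size (H3 -0.61, H2B.1/H2B.2 -0.91) and 0 of 4 were called. None was called higher, beside 1.52%.

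Histone H3 was at 0.0952 RPKM in 1 *p53*(RNAi) library at day 18 and at 0 in the other, against 0.810, 1.58 and 1.01 RPKM in the controls. This is 1 read over 2 libraries against 41 reads over 3, a ratio of 0.0392 with an exact 95% interval from counting of 0.00097 to 0.231. On the log2(RPKM + 0.5) scale, which compresses changes of such low values, the change was -1.55 (SE 0.19, adjusted p = 8.2e-09). At the earlier days H3 read 1.85, 2.77 and 2.29 RPKM in *p53*(RNAi) at day 3 and 1.77, 1.33 and 1.92 at day 6. At day 6 all 3 stood below the controls, beside 9.94% of all transcripts, with a log2 change of -0.61 (SE 0.17, adjusted p = 0.033). This passed the adjusted threshold, as 2.15% of all transcripts did in the lower direction, and was smaller than the size required for a call. With single libraries of these groups left out the adjusted p was 0.032 to 0.23. At days 9, 12 and 15 the change was -0.24, -0.15 and -0.17, with adjusted p-values over 0.05.

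Histone H2B.1/H2B.2 crossed from above to below control during the *p53*(RNAi) course. Its *p53*(RNAi) libraries measured 19.9, 18.1 and 19.3 RPKM at day 3, 17.5, 17.4 and 19.0 at day 6 and 21.9, 22.0 and 14.8 at day 9, each above every control of its day. The log2 change was 0.41 (SE 0.16, adjusted p = 0.43) at day 3, 0.33 (SE 0.16, adjusted p = 0.37) at day 6 and 0.65 (SE 0.16, adjusted p = 0.0023) at day 9, of which the last passed the adjusted threshold without reaching the size. Without *p53*(RNAi) day 9 replicate 1, the library that correlated least with the others of its group, it was 0.56 (adjusted p = 0.023). Separation of the groups is common among all transcripts at these days, with 6.32%, 8.78% and 16.4% of them above every control. The libraries then read 3.11, 5.34 and 5.10 RPKM at day 12, 2.84, 2.67 and 2.67 at day 15 and 1.72 and 0.764 at day 18, where controls had 4.12, 3.49 and 4.46 RPKM. The log2 change was -0.35 (adjusted p = 0.095) at day 12, -0.45 (adjusted p = 0.025) at day 15, where 18.2% of all transcripts passed the adjusted threshold in this direction, with adjusted p of 0.0082 to 0.23 when single libraries were left out, and -1.43 (SE 0.18, adjusted p = 1.6e-08) at day 18. The day 18 change was lower than that of day 9 by 2.07 on the log2 scale (SE 0.24, adjusted p = 8.9e-09).

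Histone H4 read 0.449 and 0.498 RPKM at day 18 of *p53*(RNAi) and 1.53, 1.03 and 1.19 RPKM in control. These are 9 reads against 38, and the log2 change of -0.83 (SE 0.25, adjusted p = 0.0056) passed the adjusted threshold but not the size, as 19.3% of all transcripts tested did in the lower direction with or without the size. At the 5 earlier days its change lay between -0.46 and -0.18 and passed no adjusted threshold. Histone H2A type 2-C read 0.787 and 0.806 RPKM at day 18 against 0.927, 1.11 and 1.11 RPKM in control, with a log2 change of -0.25 (SE 0.20, adjusted p = 0.35), and its pooled reads gave a ratio of 0.762 with an exact 95% interval of 0.468 to 1.21. It passed no test at any day, with changes from -0.25 to 0.23. At day 18 all 4 transcripts lay below every control, beside 27.9% of all transcripts tested. The *p53*(RNAi) day 18 group has 2 libraries, with 4 to 5 reads per library for H4 and 13 to 15 for H2A type 2-C. The interval for H2A type 2-C leaves both a decrease and an increase possible at this depth.

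**Figure D3:**
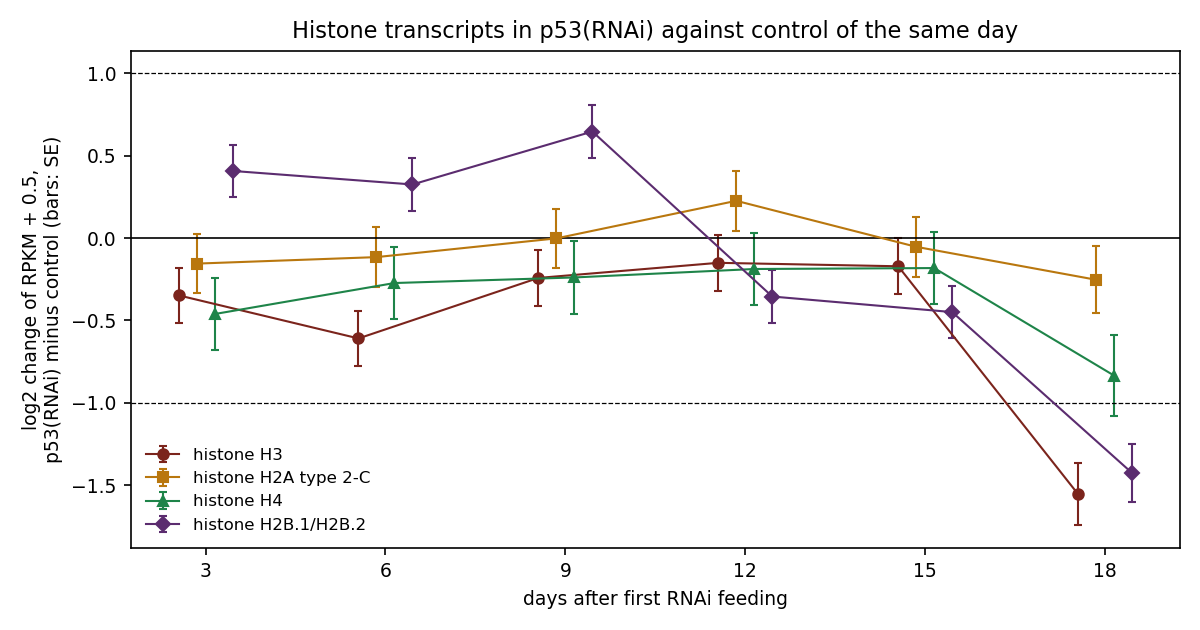
Change of log2(RPKM + 0.5) in *p53*(RNAi) minus control of the same day (bars, SE from limma) for the 4 histone transcripts, with dashed lines at the size required for a call. Histone H2B.1/H2B.2 goes from 0.65 at day 9 to -1.43 at day 18, histone H3 reaches -1.55 at day 18, and histone H2A type 2-C stays between -0.25 and 0.23.

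The control worms changed too. From day 3 to day 18 of *unc22*(RNAi), H2B.1/H2B.2 fell from 15.9, 13.7 and 13.2 to 4.12, 3.49 and 4.46 RPKM (log2 change -1.71, SE 0.16, adjusted p = 9.2e-11), rank 12 from the bottom of all transcripts tested. Histone H3 fell from 2.85, 3.56 and 2.74 to 0.810, 1.58 and 1.01 RPKM (log2 change -1.14, SE 0.17, adjusted p = 1.8e-06). These 2 of 4 calls stand beside 0.471% of all transcripts called lower, and none of the 4 was called higher beside 0.319%. The call of H3 was lost with a pseudocount of 2 (-0.69) and without control day 18 replicate 1 (-0.99), where H4 was called instead (-1.09). The change of H4 was -0.97 (SE 0.22, adjusted p = 9.2e-04), just under the required size, where 11.7% of all transcripts passed the adjusted threshold in the lower direction, and that of H2A type 2-C was -0.20 (SE 0.18, adjusted p = 0.49). The step for H2B.1/H2B.2 lay between day 9 and day 12, when control went from 12.1 to 5.86 RPKM and *p53*(RNAi) from 19.6 to 4.52 RPKM with the libraries of the later day below those of the earlier. Histone H3 took the same step in control, from 1.74 to 0.830 RPKM, and in *p53*(RNAi), from 1.40 to 0.673 RPKM. In *chd4*(RNAi), H2B.1/H2B.2 and H3 also went down over these days, from 42.9 to 32.4 RPKM and from 82.8 to 67.5 RPKM.

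A further 8 core histone transcripts are named in the study's lists of transcripts changed in these libraries. 4 of them, a late H2B.2.1 (SMED30011775), another H4 (SMED30033466), an H2A type 1 (SMED30015694) and an H2A (SMED30016975), come from the list of those higher after *chd4* or *p53* RNAi at the last day, and the other four, H2A.J (SMED30002436), H2A-IV (SMED30013212), H2A.v (SMED30017222) and H2A.Z (SMED30030543), from the list of those lower, so their direction at the last days is no independent evidence. At day 3 of *chd4*(RNAi), 2 of the 8 were called higher and none lower, when 0.0439% of all transcripts were called higher and 0.00399% lower. These were the late H2B.2.1, at 7.36 ± 0.52 RPKM against 2.58 RPKM in control (log2 change 1.36, SE 0.19, adjusted p = 4.9e-05), and the second H4, at 6.76 RPKM against 2.24 RPKM (log2 change 1.43, SE 0.22, adjusted p = 3.8e-04). Both remained called at days 6, 9, 12 and 15, with changes of 2.03 to 2.89 and 2.46 to 3.18, where 0.299% of all transcripts were called higher at day 6, and both had their highest level at day 9, 17.8 and 21.6 RPKM. The H2A was called higher from day 9 (1.34, SE 0.12, adjusted p = 1.5e-11), which makes 3 of 8 at days 9, 12 and 15 beside 0.897%, 1.67% and 1.99% of all transcripts. The H2A type 1 went up later and by less, from 16 RPKM at day 3 to 29.2 RPKM at day 15, where its change of 0.96 (SE 0.08, adjusted p = 1.1e-12) did not reach the size. The study's list of higher transcripts used *chd4*(RNAi) day 15, so the calls and p-values of these 4 at that day repeat the comparison that listed them. The calls at days 3 to 12 are of transcripts listed for being higher at the last day. They and their p-values are therefore no independent evidence either, and the shares of all transcripts are not a like reference for them.

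The 4 H2A transcripts from the list of lower ones, H2A.J, H2A-IV, H2A.v and H2A.Z, did not share this course. In *chd4*(RNAi) their log2 changes lay between -0.23 and 0.44 over the 5 days, and none was called. Of all transcripts, 0.271%, 2.07%, 3.27% and 3.87% were called lower at days 6, 9, 12 and 15. Of these changes, those of H2A.J (0.44) and H2A.v (0.26) at day 12 and H2A-IV (-0.23) at day 15 passed the adjusted threshold. They had the highest levels of the 12 histone transcripts in control at day 3. H2A-IV was at 458 RPKM, H2A.v at 140, H2A.J at 57.8 and H2A.Z, the variant found near transcription start sites, at 55.8 RPKM in control at day 3, where H2A type 1 was at 15.6 RPKM and H2B.1/H2B.2 at 14.3 RPKM. At day 9 of *chd4*(RNAi), H3 at 82.8 RPKM stood above H2A.J at 52.8 and H2A.Z at 46.5 RPKM. In *p53*(RNAi) at day 18 all 4 fell, H2A.J by 2.70 on the log2 scale, H2A.Z by 2.03, H2A-IV by 1.16 and H2A.v by 1.09 (adjusted p from 2e-19 to 1e-11). The second H4 fell as well (-1.22, SE 0.25, adjusted p = 1.1e-04), which makes 5 of 8 called lower, beside 3.56% of all transcripts. The study's lists used this day too, so these calls and p-values are no independent evidence. The H2A (0.48, adjusted p = 0.0041) and the H2A type 1 (0.42, adjusted p = 3e-04) were instead higher than control at that day, by less than the required size. The late H2B.2.1 changed by -0.92 (adjusted p = 4.8e-04).

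**Figure D4:**
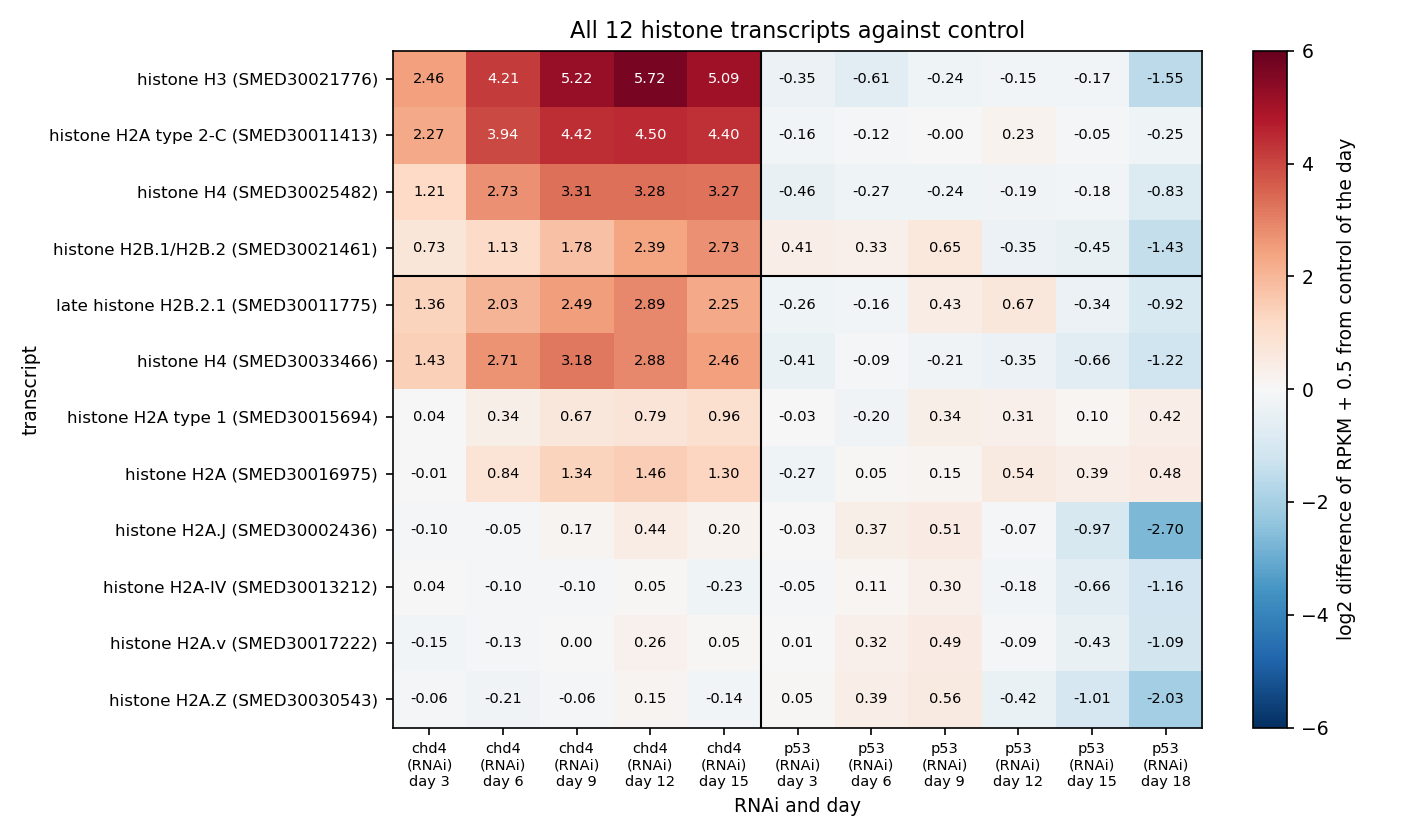
Difference of log2(RPKM + 0.5) from control of the same day for the 4 histone transcripts (above the line) and the 8 others named in the study's lists (below), by RNAi and day. In *chd4*(RNAi) the largest differences are those of histone H3 (5.72 at day 12), the 4 H2A transcripts at the bottom stay between -0.23 and 0.44, and in *p53*(RNAi) at day 18 H2A.J is lowest at -2.70.

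A pair of H4 and a pair of H2B transcripts are thus among the 12, and the H4 pair had like levels. It measured 24.5 and 21.6 RPKM at day 9 of *chd4*(RNAi) and 2.16 and 1.96 RPKM in control. The authors' alignment kept reads that matched up to 5 places, so a read of one histone transcript may be counted for another that is near-identical. The values of the H4 pair, and of the H2B pair, are uncertain for that reason. Reads that matched more places were dropped, which lowers the value of a transcript with many copies. In control worms the pairs parted. From day 3 to day 18 the H4 described here changed by -0.97 and the second H4 by -0.05 (SE 0.22, adjusted p = 0.92), and H2B.1/H2B.2 by -1.71 against -0.35 (SE 0.19, adjusted p = 0.21) for the late H2B.2.1, differences that were not tested.

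The transcript for the histone RNA hairpin-binding protein (SMED30026247), the stem-loop binding protein that in animals protects and processes hairpin-ended histone mRNA, did not pass the test in *chd4*(RNAi). It measured 8.25 ± 0.56 RPKM at day 3 and 8.58 ± 0.18 RPKM at day 9, against 9.26 ± 0.88 and 8.50 ± 1.24 RPKM in control (SD, n = 3 each), with log2 changes of -0.16, -0.15, 0.02, 0.20 and 0.07 over the 5 days (SE 0.13, adjusted p from 0.25 to 0.94). In *p53*(RNAi) it changed by 0.57 at day 9 (SE 0.13, adjusted p = 9.1e-04), by -0.83 at day 15 (adjusted p = 1.7e-06) and by -1.52 at day 18 (SE 0.14, adjusted p = 1.9e-11). Of the 8 transcripts in the list of histone mRNA processing factors and histone chaperones, none was called in either direction at any day of *chd4*(RNAi). Of all transcripts, 0.0439% at day 3 to 1.99% at day 15 were called higher, and 0.00399% to 3.87% lower. At such shares few or no calls would fall in a list of this size, so no absence of change is read from the count. At day 18 of *p53*(RNAi) 3 were called lower, beside 3.56% of all transcripts. At any size, 1 of 2 transcripts named RBBP4, the histone-binding protein that is also a NuRD subunit, was lower than control in *chd4*(RNAi). Its mean was 20.4 against 24.6 RPKM in control at day 6 and 13.9 against 25.6 RPKM at day 15. That transcript, SMED30022238, was singled out after its values were seen, and its change went from -0.27 (SE 0.08, adjusted p = 0.027) at day 6 to -0.86 (SE 0.08, adjusted p = 3.6e-12) at day 15. At day 15, 19.5% of all transcripts passed the adjusted threshold in the lower direction. The other RBBP4, SMED30028689, had means on both sides of control, 67.4 against 75.8 RPKM at day 6, 64.7 against 58.35 at day 12 and 53.3 against 59.7 at day 15. The hairpin-binding protein was 1 of the 3 called lower at day 18 of *p53*(RNAi). The others, the 2 largest changes of this list at that day, were Caf1, the histone-binding subunit of chromatin assembly factor (-2.25, SE 0.12, adjusted p = 3.4e-18), and the cleavage and polyadenylation specificity factor subunit 4, of the complex that cuts pre-mRNA ahead of poly(A) addition (-1.89, SE 0.20, adjusted p = 3.9e-10).

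Lists of transcripts for DNA replication and mitosis and of neoblast markers, all taken from transcripts that the study lists as changed in these libraries and so no independent evidence of a direction, were set beside the 4 histone transcripts. Of 27 replication transcripts, none was called at days 3 to 12 of *chd4*(RNAi) and 1 was called higher at day 15. Their summed level was 445 to 455 RPKM at day 3 against 456 to 508 RPKM in control and 422 to 444 against 413 to 461 RPKM at day 9. None of 9 mitotic transcripts and none of 5 neoblast markers was called in *chd4*(RNAi) either. Of all transcripts, 0.0439%, 0.299%, 0.897%, 1.67% and 1.99% were called higher at days 3, 6, 9, 12 and 15. Called lower were 0.00399%, 0.271%, 2.07%, 3.27% and 3.87%. At such shares few or no calls would fall in lists of this size, so no absence of change is read from the counts. At an adjusted p under 0.05 and any size, 13 of the 27 replication transcripts were higher at day 12, beside 17.2% of all transcripts. At that day 2 of the 5 neoblast markers were higher and 1 was lower, beside 4168 lower of all 25079 transcripts. At day 15, 3 neoblast markers were lower, beside 19.5%, and none was higher. *smedwi-1* stood above every control at days 3, 6, 9 and 12, beside 8.21%, 10.5%, 20.7% and 21.8% of all transcripts. Its ratio of means was 1.13, 1.14, 1.16 and 1.37 at these days and 0.917 at day 15, where the libraries overlapped. The summed neoblast markers ranged over 806 to 838 RPKM at day 9 of *chd4*(RNAi) and 784 to 840 RPKM in control, and over 519 to 560 against 604 to 626 RPKM at day 15, where the libraries no longer overlapped. Of 4 markers of epidermal progeny, the post-mitotic cells that replace the epidermis, none was called at days 3 and 6 of *chd4*(RNAi) and 1, *AGAT-1*, was called lower at days 9, 12 and 15 (-1.47, SE 0.10, adjusted p = 1.7e-15 at day 9). Their summed level was 679 to 713 RPKM at day 9 against 892 to 1044 RPKM in control. None of these markers was at 0 in all libraries of any group. Their part in the level of the 4 histone transcripts was not tested. As ratios of median sums to control, *chd4*(RNAi) stood at 11.5 for the 4 histone transcripts at day 9 and at 0.999 for the 8 other histones, whose sum is mostly H2A-IV and H2A.v.

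In *p53*(RNAi), many replication and mitotic transcripts were above control at day 9 and most were below it at day 18, as H2B.1/H2B.2 was. At day 9, 19 of 27 replication transcripts, 5 of 9 mitotic transcripts and 3 of 5 neoblast markers were higher at an adjusted p under 0.05 and any size, where 12.3% of all transcripts were, and 1 neoblast marker, fibroblast growth factor receptor 1, was called lower (-1.43, SE 0.09, adjusted p = 2.8e-16). It was already lower at day 3 (-0.75, SE 0.09, adjusted p = 3.1e-07). Of the 4 epidermal progeny markers 2 were called lower at day 9 and none higher. At day 18, 23 of 27 replication transcripts were called lower and 1 higher, with 7 of 9 mitotic transcripts and 4 of 5 neoblast markers lower, where 3.56% of all transcripts were called lower and 1.52% higher. With a pseudocount of 2, 14 of the 27 replication transcripts were called lower. The study's lists, from which these transcripts were taken, used *p53*(RNAi) day 18, so the counts at that day are no independent evidence. The transcripts named next were among the largest changes of their lists at day 18, and their p-values carry that choice. *Mcm3*, a subunit of the replicative helicase, changed by -2.53 (SE 0.11, adjusted p = 9.4e-21), the origin recognition complex subunit 4 by -2.41 and cyclin-B2, which drives entry into mitosis, by -2.41 (SE 0.13, adjusted p = 9e-19). *smedwi-1* changed by -2.91 (SE 0.12, adjusted p = 4e-21) and *AGAT-1*, a marker of late epidermal progeny, by -2.73 (SE 0.11, adjusted p = 5.7e-22). The summed neoblast markers were at 199 to 222 RPKM at day 18 against 603 to 615 RPKM in control. Their part in the histone values was not tested.

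**Figure D5:**
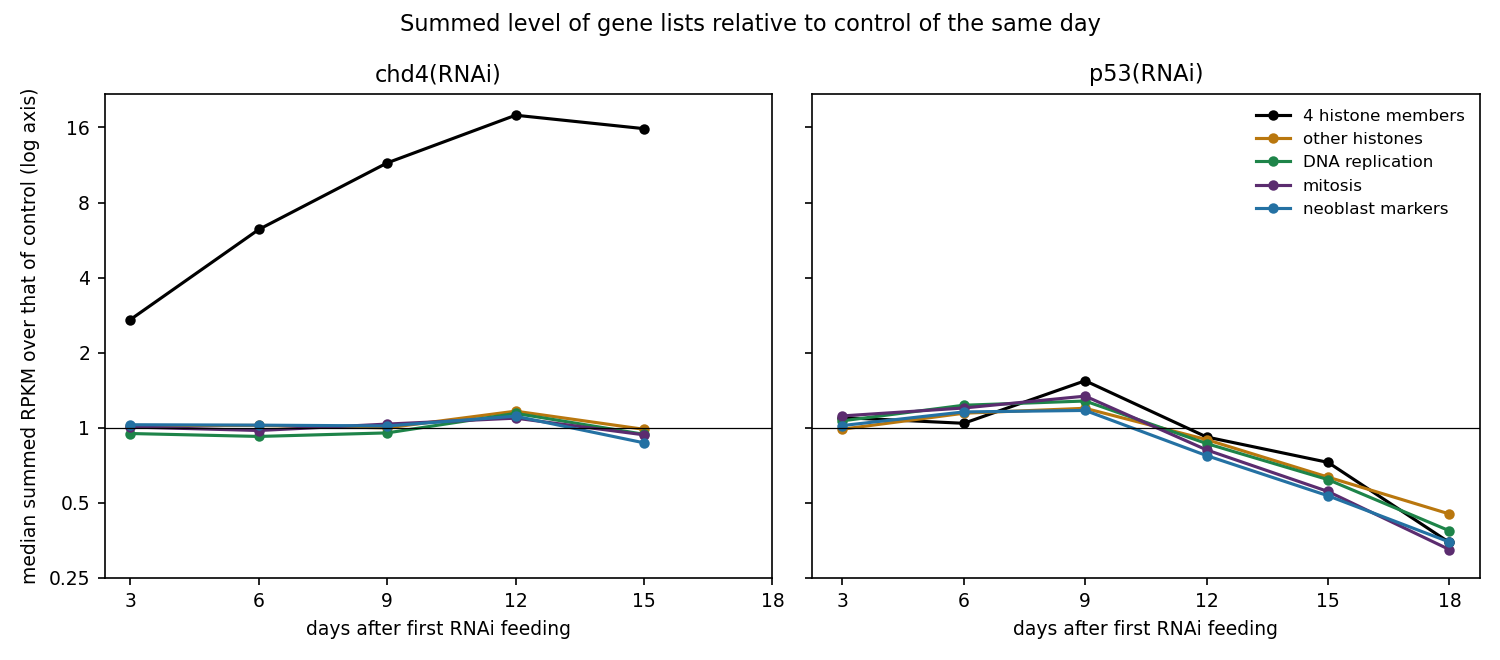
Median summed RPKM of the 4 histone transcripts, the 8 other histones, 27 replication transcripts, 9 mitotic transcripts and 5 neoblast markers, divided by that of control of the same day (log axis), in *chd4*(RNAi) and *p53*(RNAi). The 4 histone transcripts reach 17.9 at day 12 of *chd4*(RNAi) while the 8 other histones are at 1.17, and in *p53*(RNAi) the 4 transcripts, whose sum is 81.2% H2B.1/H2B.2 at day 9, go from 1.54 at day 9 to 0.347 at day 18.

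Over the 50 libraries the 4 transcripts varied together, with Pearson's r of log2 levels of 0.713 to 0.981 between pairs and Spearman's rho of 0.729 to 0.910. The highest r was between H3 and H4 and the lowest between H2A type 2-C and H2B.1/H2B.2. These values rest on the distance between *chd4*(RNAi) and the other libraries. Within the 18 control libraries r was 0.421 to 0.845, and for deviations from the group means it was -0.427 to 0.315, so that libraries of one group that were high in one histone were not regularly high in the others. Deviations from group means correlated with depth at r of -0.179 to 0.213. The median spread within *chd4*(RNAi) groups was close to what counting alone gives for H3 and H2B.1/H2B.2. In *chd4*(RNAi) the median coefficient of variation of H3 was 4.17% where counting gives 3.66%, and for H2B.1/H2B.2 it was 5.90% against 5.59%. H4 varied more, 11.2% against 7.45%. Single groups of *p53*(RNAi) and control lay on both sides of counting. At day 9 of *p53*(RNAi), H2B.1/H2B.2 varied by 21.1% against 6.81% from counting and H2A type 2-C by 56.6% against 19.9%. H3 in the same group varied by 10.8% against 23.8%. In control at day 9, H4 varied by 52.4% against 20.4%. Each of the 4 had 69 to 1330 reads in a *chd4*(RNAi) library, and H3, H4 and H2A type 2-C had 4 to 43 in a control library. Reads are not independent molecules, and intervals from counts cover counting error only.

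The transcript most like H3, H4 and H2A type 2-C over the 50 libraries was in each case SMED30011448, with r of 0.977, 0.972 and 0.981 and rho of 0.873, 0.868 and 0.770. It has no description in the sources used here, and it measured 24.3 RPKM at day 9 of *chd4*(RNAi) and 0.663 RPKM in control. Next came the second H4 and the late H2B.2.1 for H3 (r of 0.962 and 0.959, rho of 0.789 and 0.887). For H4 they were the second H4 and SMED30023175 (r of 0.961 and 0.958, rho of 0.803 and 0.751). For H2A type 2-C they were SMED30023175 and SMED30029435 (r of 0.979 and 0.970, rho of 0.696 and 0.652). SMED30029435 was at 6.74 RPKM at day 9 of *chd4*(RNAi) and at 0.0652 RPKM in control. The 4 histone transcripts were chosen on their level in *chd4*(RNAi), so r with them favours transcripts also high there and is no independent evidence. H2B.1/H2B.2 had other neighbours, SMED30027920, SMED30011127 and SMED30033595 (r of 0.95, 0.939 and 0.936, rho of 0.907, 0.880 and 0.893), without a description. SMED30027920 stood at 42.7 RPKM in *chd4*(RNAi) and 38.8 RPKM in control at day 3, and at 42.7 and 27.2 RPKM at day 15.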

How the data were processed

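RNA of whole worms, selected for poly(A), was sequenced on an Illumina HiSeq instrument from stranded TruSeq libraries of 10 worms each. The authors made read files with CASAVA 1.8.2, aligned reads with Bowtie to transcripts, allowing up to 5 matching places, and tested counts with edgeR. Which strand was counted and how the deposited RPKM values were scaled is not given in the sources used here. 1 library was removed as an outlier by the authors. Values were used as deposited. Replicates are separate collections of worms, and the labels mark no batch.

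Levels were tested as log2(RPKM + 0.5) with limma 3.58.1 in R 4.3.3 (trended prior, all 50 libraries in 17 groups, 25079 transcripts that reached 1 RPKM in 2 or more libraries, 9978 left out), with Benjamini-Hochberg adjustment per contrast and a transcript was called where the adjusted p was under 0.05 and the log2 change exceeded 1 in either direction. The count test of the study was not run, since the values are RPKM. In data simulated for *p53*(RNAi) day 18 against control, 98% of 50 transcripts changed by -1.5 on the log2 scale and 2 of 24879 unchanged ones were called.

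Depth, transcript length and reads were recovered from the steps of the low RPKM values, up to a common factor. Steps were found for 84.2% of transcripts, and 99.98% of their lengths were whole within 0.1 bases. The recovered lengths of the H3, H2A type 2-C, H4 and H2B.1/H2B.2 transcripts were 651, 1024, 552 and 576 bases. They were used for counting intervals only.

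The 4 transcripts and all lists were chosen with earlier results of these data known. Named transcripts are the 4, the 8 other histones, the hairpin-binding protein, *chd4*, *p53*, *smedwi-1*, *AGAT-1*, up to 2 of each further list with the largest change at *p53*(RNAi) day 18, and the 3 most alike by Pearson's r. Names come from the study's tables. Alternatives were other pseudocounts, median-ratio scaling, no filter, a fit of 2 groups only, a replicate block and leaving out libraries.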

Additional observations from a re-analysis of the deposited data

Results flagged for a closer look

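The effect of *p53*(RNAi) differed between day 9 and day 18 for 2 of the 4 histone transcripts, by a test of the difference of both contrasts in limma with Benjamini-Hochberg adjustment over all 25079 transcripts, 26.3% of which passed it. For histone H3 the change against control was -0.24 at day 9 and -1.55 at day 18, a difference of -1.31 (SE 0.25, adjusted p = 9.7e-05). For histone H2B.1/H2B.2 it was 0.65 and -1.43, a difference of -2.07 (SE 0.24, adjusted p = 8.9e-09). The differences for histone H4 (-0.60, adjusted p = 0.20) and histone H2A type 2-C (-0.25, adjusted p = 0.56) did not pass. The pair of days was chosen after the values were seen, and the H3 value at day 18 rests on 1 read in *p53*(RNAi). The summed levels of the neoblast markers and of the replication transcripts were above control at day 9 and below it at day 18, and their part was not tested.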

How the results depend on the processing

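The pseudocount mattered most, because the control and late *p53*(RNAi) levels are low. With a pseudocount of 2, 0 of the 4 transcripts were called lower at *p53*(RNAi) day 18 (H3 -0.61, H2B.1/H2B.2 -0.91, both still past the adjusted threshold) and 1 in control from day 3 to day 18. At day 15 of *chd4*(RNAi) the log2 difference was then 3.97 for H3, 3.34 for H2A type 2-C, 2.50 for H4 and 2.38 for H2B.1/H2B.2, and with a pseudocount of 0.1 it was 5.66, 4.95 and 3.62 for H3, H2A type 2-C and H4. With 0.1, H4 passed the required size at *p53*(RNAi) day 18 (-1.22) and in control (-1.17), which makes 3 of 4 in each. Replication transcripts called lower at *p53*(RNAi) day 18 went from 23 to 14 with a pseudocount of 2, and the 1 called higher at *chd4*(RNAi) day 15 was lost. Without control day 18 replicate 1, H3 in control was at -0.99 and H4 at -1.09, which exchanges the calls of these transcripts. Changes near 0 that passed no test turned their sign. H2A type 2-C at *p53*(RNAi) day 9 was 0.016 with a pseudocount of 2, 0.00091 with median-ratio scaling and 0.060 without the library of that group that stood apart, and -0.31 to 0.24 when single libraries were left out. In the same way H4 at day 9 ranged from -0.46 to 0.088, H3 from -0.38 to 0.058 at day 12 and from -0.29 to 0.050 at day 15, and H2A type 2-C at day 15 from -0.20 to 0.17. Leaving out single libraries gave 2 of 4 called lower at *p53*(RNAi) day 18 each time and 2 to 3 of 4 in control from day 3 to day 18. At days 3 to 15 of *p53*(RNAi), 0 of 4 were called in either direction under every alternative run.

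The replicate numbers of the labels mark no shared batch, and deviations of libraries with the same number correlated at -0.0363 to 0.145 over 35 pairs, against -0.168 to 0.122 for different numbers, so the libraries were not taken as paired. With the number as a block, 2 of the 4 remained lower at *p53*(RNAi) day 18 (H3 -1.58, H2B.1/H2B.2 -1.43) and 2 in control, and no other call differed. Median-ratio scaling moved the median transcript from 0.00154 to -0.0205 on the log2 scale at *p53*(RNAi) day 18, and in no comparison by more.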
